A study of Homo sapiens with 18 samples.

Results

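The genes described here encode the proteins of the cytosolic ribosome. They were chosen by symbol alone, as RPL or RPS followed by A, P0 to P2 or a number with an optional letter or L paralogue, so no measured value entered the choice. The rule found 91 probes of 82 genes among the 21111 probes (19289 gene symbols) of the assay, 56 of them for proteins of the 60S subunit (RPL) and 35 for proteins of the 40S subunit (RPS). A mean normalized read count of at least 10 over the 18 libraries was reached by 81 of the 91 probes and by 10475 of all probes. The remaining 10 probes were those for RPL3L, RPL10L, RPL31, RPL39, RPL39L and RPS10, and further probes, among them those for RPL27A, RPL36A and RPS20. RPL10L had no read in any library, which allows at most 3 reads, or 0.024 RPM (reads scaled to library size), over the 18 libraries (counting error alone). None of the 91 probes carried the symbol RPL11 or RPL22, so these genes were not analysed here.

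The ribosome joins a small 40S subunit, which decodes the mRNA, to a large 60S subunit, which forms the peptide bond, and most ribosomal proteins are present in equal number in each ribosome. Their mRNAs are short and abundant. Most begin with a C followed by an unbroken run of C and T (U in the RNA), the terminal oligopyrimidine or TOP motif, through which mTOR and the protein LARP1 control their translation and stability, so that the family tends to move together with growth. Some members also act outside the ribosome: RPL5 binds MDM2 and so raises p53, RPS6 is the substrate of S6 kinase, and RPS27A is made as a fusion with ubiquitin.

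The samples were BT549, Hs578T and SUM149PT, established cell lines grown from human triple-negative breast cancers (TNBC), transfected with 50 nM of a pool of siRNAs against ASAP1 (siASAP1) or of control siRNA (siCtrl, a pool of kinase siRNAs per the study's methods). ASAP1 is an Arf GTPase-activating protein. Cells grew in 96-well plates and were lysed after 72 h, and each of the 6 groups had 3 libraries, called biological triplicates in the study's methods; the labels do not say what the replicates share. Expression was read by TempO-Seq, in which a pair of detector oligonucleotides anneals side by side on an RNA, is ligated and is sequenced, so that a value belongs to 1 short stretch of 1 transcript and levels of different probes are not comparable.

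Libraries held between 4633629 and 12488575 reads. The ASAP1 probe, which reports the silenced gene, had normalized counts of 1107, 966 and 944 in siCtrl and 367, 730 and 783 in siASAP1 of BT549, 1641, 1414 and 2697 against 782, 825 and 1261 in Hs578T, and 1087, 189 and 1314 against 282, 468 and 184 in SUM149PT. The library labelled SUM149PT siCtrl replicate 2 thus had an ASAP1 level inside the range of the siASAP1 libraries and goes against its label. It is part of every SUM149PT value below, counts of members below 0 or without overlap included, unless the value is said to be without it. The epithelial gene EPCAM had a mean of 29532 normalized counts in SUM149PT siCtrl against 1.72 in BT549 and 19.0 in Hs578T. Vimentin (VIM_18185) was read in all of these cell lines. Other epithelial and mesenchymal markers are not given here. The leukocyte gene PTPRC stayed at or under a mean of 0.889.

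The starts of the genes bear on how the family is controlled, so 5 are shown for members on which the results below turn. RPL10A, RPS23 and RPS26 fell over the 3 cell lines, and RPLP0 anchors the ribosomal stalk. RPL29 had a probe, RPL29_12206, that separated BT549 from the other cell lines. Each line gives the 15 bases before and the first 15 bases of the transcript (RefSeq, GRCh38.p14), 5′ to 3′ on the strand of the gene. Capitals mark the longest run of C and T that reaches within 3 bases of the start.
RPL10A, chr6:35468386-35468415, plus strand: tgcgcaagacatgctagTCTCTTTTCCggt
RPS23, chr5:82278340-82278369, minus strand: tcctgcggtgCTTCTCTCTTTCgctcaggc
RPS26, chr12:56041903-56041932, plus strand: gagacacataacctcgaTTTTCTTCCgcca
RPLP0, chr12:120201097-120201126, minus strand: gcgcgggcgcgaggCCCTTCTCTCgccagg
RPL29, chr3:51995881-51995910, minus strand: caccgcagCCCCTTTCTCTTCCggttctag
A RefSeq promoter was found for 65 of the 82 members, RPL23A not among them. A run of 8 or more bases of C and T at the start was present in 67.7% of these members. It was present in 9.55% of all 27305 RefSeq promoters, a set not limited to the genes of the assay. A C stood at the annotated start of 70.8% of these members against 14.99% of that set. In RPL10A and RPS26 the annotated start lies just ahead of the run and is not a C.

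Between 3.08% and 10.1% of a library's reads fell on ribosomal protein probes, and in each cell line the mean share was lower after siASAP1. In BT549 the share was 6.96%, 4.75% and 5.08% in siCtrl and 3.86%, 5.56% and 4.67% in siASAP1, or 5.59% ± 1.19 against 4.69% ± 0.85 (mean ± SD, n = 3). In Hs578T it was 8.85%, 10.1% and 7.70% against 7.17%, 8.24% and 7.18%, or 8.88% ± 1.20 against 7.53% ± 0.61. In SUM149PT it was 7.84%, 5.34% and 7.62% against 3.08%, 6.20% and 4.03%, or 6.93% ± 1.38 against 4.44% ± 1.60. The groups overlapped in all 3 cell lines. In SUM149PT the overlap lay between siCtrl replicate 2, the library that goes against its label, and siASAP1 replicate 2. When either was left out, every remaining siCtrl library was above every remaining siASAP1 library. The difference of -2.50 percentage points became -3.29 without siCtrl replicate 2 and -3.38 without siASAP1 replicate 2. It was -1.81 without siASAP1 replicate 1. In BT549 the difference of -0.90 percentage points shrank to -0.22 without siCtrl replicate 1, and in Hs578T that of -1.35 shrank to -0.74 without siCtrl replicate 2. Counting error is small here, since the smallest of these shares rests on 143866 reads, and the spread is that between libraries. As the values are shares of each library, less ribosomal protein mRNA per cell and more of other RNA cannot be told apart.

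**Figure D1:**
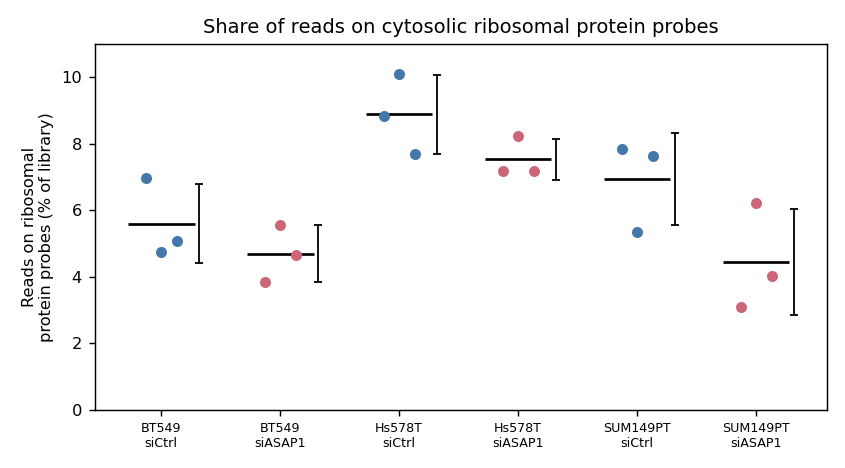
Share of each library's reads on the 91 ribosomal protein probes (y axis, percent) for siCtrl (blue) and siASAP1 (red) in each cell line; points are libraries, horizontal lines group means and vertical bars SD (n = 3). The means were lower after siASAP1 in each cell line, from 6.93% to 4.44% in SUM149PT, and the libraries of both groups overlapped.

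Probe by probe, most ribosomal protein mRNAs were measured lower after siASAP1, modestly in BT549 and Hs578T and more in SUM149PT, and no single member passed an adjusted p of 0.05 within a cell line. In BT549 the median Log2 FC of the 80 members tested was -0.26, beside -0.00 over all 9666 probes, and 54 were below 0 (67.5%, beside 50.1% of all probes). In Hs578T the median was -0.27 beside 0.01, with 64 of 81 below 0 (beside 49.2%). In SUM149PT it was -0.91 beside 0.09, with 73 of 80 below 0 (beside 46.5%), and the median member stood at 53.3% of its siCtrl level; without siCtrl replicate 2 the median was -0.997 beside 0.11. The Hs578T median was -0.11 without siCtrl replicate 2 of that cell line. In SUM149PT the 60S members had a median of -0.99 and the 40S members of -0.84, beside -0.30 and -0.22 in BT549 and -0.31 and -0.16 in Hs578T. With scaling by library totals the medians of all probes moved to 0.06, 0.12 and 0.30 in BT549, Hs578T and SUM149PT, and those of the members to -0.20, -0.15 and -0.69, still below them. Members moved together between replicates of a group, as given below (median pairwise correlation 0.39, SD of the library medians 0.40). Counts of members, here and below, are therefore not counts of separate observations.

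No probe of any gene reached an adjusted p under 0.05 within a cell line (0%, limma). At the limits used in the study, an unadjusted p under 0.05 and a change over 2-fold, 2 of 80 members were lower in BT549 (3.69% of all probes were), 1 of 81 in Hs578T (1.44%), 23 of 80 in SUM149PT (4.29%), while 0 were higher in any cell line (3.28%, 1.34% and 5.27% of all probes). At an unadjusted p under 0.05 alone, limma gave 3, 5 and 24 lower members and 0 higher ones (4.24%, 2.75% and 4.69% of all probes lower; 3.56%, 2.54% and 5.48% higher). The 23 members of SUM149PT depended on single libraries: the count was 8 without siCtrl replicate 1, 11 without siCtrl replicate 3, 8 without siASAP1 replicate 1, 10 without siASAP1 replicate 3, 33 without siASAP1 replicate 2, and 32 without siCtrl replicate 2, which goes against its label. In BT549 the count was 11 without siASAP1 replicate 1, where 1 member also passed an adjusted p of 0.05, and 0 without siASAP1 replicate 3. In Hs578T it was 3 without siCtrl replicate 3. Shares of all probes in the fits without a library are not given here, so these counts show only how far the calls moved. Without BT549 siCtrl replicate 1 the median of BT549 was 0.04, so the lower median in that cell line rested on that library.

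The 2 groups did not overlap, with siASAP1 lower, for 7 members in BT549 (6.51% of all probes), 13 in Hs578T (5.78%) and 26 in SUM149PT (8.41%), and with siASAP1 higher for 1, 1 and 0 members (7.35%, 6.31% and 8.87%). Of the 78 members tested in all 3 cell lines, 46 were below 0 in each (19.9% of the 7990 probes tested in all 3) and 3 were above 0 in each (19.3%). Among the latter were RPS27A and the probe RPL29_5931, for which 8 of 9 siASAP1 libraries were nevertheless below the siCtrl mean of their cell line. For 3 members, RPL23A, RPS26 and RPS23, the groups did not overlap in any cell line, with siASAP1 lower (0.776% of probes). In at least 2 cell lines the groups did not overlap for 9 members with siASAP1 lower (3.55% of probes) and for 0 with siASAP1 higher (3.17%). The difference between groups of 3 libraries cannot reach an exact permutation p below 0.1.

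**Figure D2:**
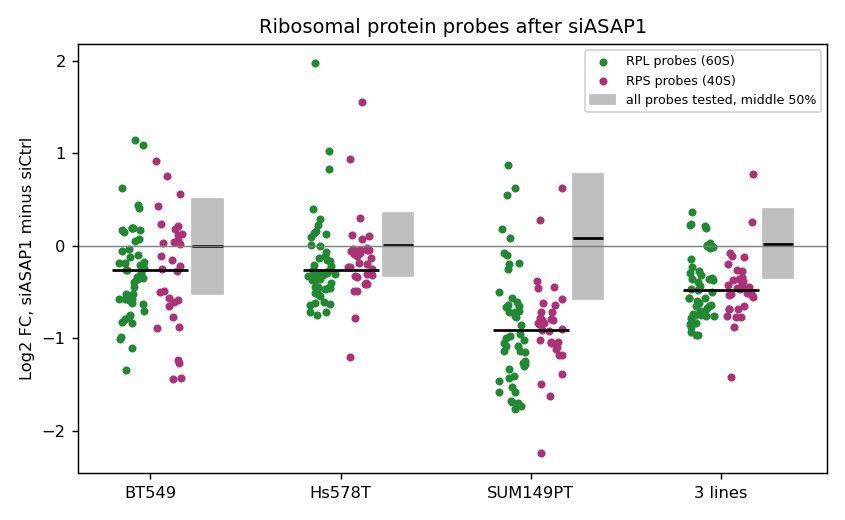
Log2 FC of each ribosomal protein probe (y axis, siASAP1 minus siCtrl) in each cell line and in the fit over 3 cell lines; green points are RPL and purple points RPS probes, black lines the medians of the members, and grey bars with a line the middle 50% and median of all probes tested. The member medians lie at -0.26, -0.27, -0.91 and -0.48, each below the median of all probes.

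When all 18 libraries were fitted together in limma with a term for the cell line, and so with the same libraries as above, the median Log2 FC of the 81 members was -0.48 beside 0.02 over all 10475 probes, and 72 members were below 0 (beside 48.3%). An adjusted p under 0.05 was reached by 4 members, RPL23A, RPS26, RPL10A and RPS23, all lower (1.06% of all probes were lower by this rule), and by 0 members in the higher direction (0.678%). With the replicate number as a block in the fit, 0 of these 4 members passed, as given below. At an unadjusted p under 0.05, 30 members were lower and 1 was higher (8.17% and 7.68% of all probes). The 60S members had a median of -0.56 and the 40S members of -0.45. Members with a mean level over 1000 had a median of -0.51, beside -0.09 for other probes of that level. With scaling by library totals the median of all probes moved to 0.15 and that of the members to -0.35.

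RPL23A, a 60S protein at the exit of the nascent chain, lies on chromosome 17 (28719393 to 28724359, plus strand, GRCh38 with GENCODE release 29). Its normalized counts were 8121, 4484 and 3507 in BT549 siCtrl against 2670, 3406 and 2824 in siASAP1, 8145, 10804 and 14354 against 5656, 7869 and 6422 in Hs578T, and 8196, 5600 and 7300 against 2477, 2695 and 2584 in SUM149PT. Each siASAP1 library was below each siCtrl library of its cell line. The Log2 FC over 3 cell lines was -0.97 ± 0.19 (SE), with an adjusted p of 0.011 in limma. In SUM149PT the level was 36.8% of siCtrl (Log2 FC -1.43 ± 0.33), and without siCtrl replicate 2 it was the member that passed in that cell line alone (adjusted p 0.0489).

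RPS26, a 40S protein at the mRNA exit channel, lies on chromosome 12 (56041351 to 56044697, plus strand). Its probe gave few reads, from 14 to 243 in a library. Normalized counts were 56.2, 83.6 and 63.1 against 34.7, 30.2 and 12.8 in BT549, 116, 67.7 and 115 against 64.6, 27.8 and 39.5 in Hs578T, and 200.2, 221 and 173 against 54.2, 44.9 and 104 in SUM149PT. The groups were apart in each cell line, the siASAP1 means being 38.3%, 44.0% and 34.1% of siCtrl. RPS26 met the study's limits in all 3 cell lines, but not in BT549 without siCtrl replicate 2 or 3 or siASAP1 replicate 3, nor in Hs578T without siCtrl replicate 1 or 3 or siASAP1 replicate 2 or 3 (Log2 FC -0.93 without siASAP1 replicate 2). Over 3 cell lines the Log2 FC was -1.43 ± 0.28 (adjusted p 0.0114, limma). It has 30 annotated pseudogenes that carry its name, and RPL23A has 91, so reads from such copies could be counted with either gene.

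RPL10A, a 60S protein of the L1 stalk on chromosome 6 (35468408 to 35470785, plus strand), had 21575, 9274 and 8803 normalized counts against 7258, 7739 and 5525 in BT549, 18269, 24548 and 22570 against 11548, 18863 and 10475 in Hs578T, and 20210, 15658 and 19040 against 6407, 8655 and 8092 in SUM149PT. Only in Hs578T did the groups overlap, through siASAP1 replicate 2. The Log2 FC over 3 cell lines was -0.93 ± 0.20 (adjusted p 0.0173, limma).

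RPS23, a 40S protein at the decoding centre on chromosome 5 (82273358 to 82278577, minus strand), had 5885, 5983 and 5661 against 4459.5, 3434 and 3647 in BT549, 3353, 3357 and 4104 against 2359, 2826 and 2517 in Hs578T, and 3179, 6342 and 3755 against 2027, 1486 and 2171 in SUM149PT. The groups did not overlap in any cell line, and the highest value of SUM149PT was in siCtrl replicate 2. The Log2 FC was -0.76 ± 0.17 (adjusted p 0.0226, limma) over 3 cell lines and -0.65 without that library. All 9 siASAP1 libraries were below the siCtrl mean of their cell line for each of these 4 members, and each call held when any single library was left out (7 members were called without Hs578T siCtrl replicate 3); RPL3, next in order, had a Log2 FC of -0.75 and an adjusted p of 0.051.

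**Figure D3:**
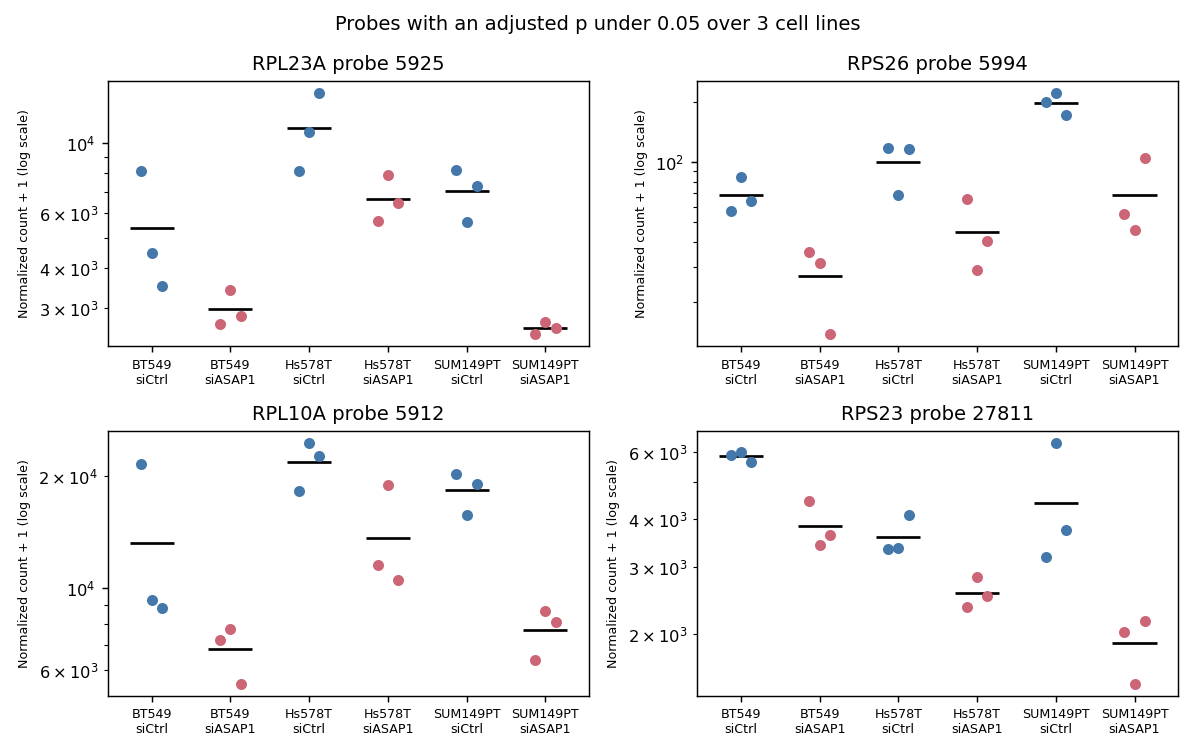
Normalized counts plus 1 (y axis, log scale) of RPL23A, RPS26, RPL10A and RPS23 in the libraries of each group; points are libraries (blue siCtrl, red siASAP1) and lines group means. For RPL23A, RPS26 and RPS23 every red point lies below every blue point of the same cell line; for RPL10A they overlap in Hs578T.

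No member rose past the adjusted threshold. RPL7L1, a paralogue of RPL7 that takes part in ribosome assembly, had a Log2 FC of 0.24 over 3 cell lines (adjusted p 0.72, limma) and RPL12, a 60S protein at the base of the stalk, 0.37 (adjusted p 0.80) and 0.07 without SUM149PT siCtrl replicate 2.

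Differences between cell lines in the response did not pass the threshold for any member: the interaction test of limma called 0 members at an adjusted p under 0.05 (1 of 10475 probes, 0.00955%) and 3 at an unadjusted p under 0.05 (6.22% of all probes). Among these were RPL35 and RPL14. RPL35, a 60S protein, had 14901, 13405 and 16498 normalized counts in SUM149PT siCtrl against 4211, 7419 and 5610 in siASAP1, but 9336, 6320 and 5159 against 5503, 8005 and 7627 in BT549. The groups were far apart in SUM149PT (Log2 FC -1.41, and -1.49 without siCtrl replicate 2) and overlapped in BT549 (0.05), with an adjusted interaction p of 0.527. RPL14 had at most 35.3 normalized counts in a library, and its interaction rests on few reads. Without SUM149PT siCtrl replicate 2, 14 members had an unadjusted interaction p under 0.05 and 0 an adjusted one, without BT549 siCtrl replicate 1 there were 11 and 0, and without SUM149PT siASAP1 replicate 2 there were 12 and 0. The shares of all probes in these fits are not given here, so the counts show only how far the calls moved.

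The stalk proteins recruit the translation factors that hydrolyse GTP. RPLP0, their anchor, was read by RPLP0_20556 at 12075, 3893 and 5064 normalized counts against 3728, 3320 and 2335 in BT549, where it met the study's limits (Log2 FC -1.01), at 24336, 30377 and 12484 against 15401, 18104 and 15797 in Hs578T, and at 14239, 21252 and 12492 against 4773, 10448 and 7142 in SUM149PT (Log2 FC -1.14). The groups were apart in BT549 and SUM149PT and overlapped in Hs578T. In BT549 the change was -0.53, under the limit, without siCtrl replicate 1. RPLP1 had a Log2 FC of -0.76 and RPLP2 of -0.60 over 3 cell lines, with adjusted p of 0.407 and 0.293 in limma. RPLP2 in SUM149PT siCtrl was at 41606, 14210 and 41088, so that the library labelled replicate 2 lay within the siASAP1 values of 8079, 24105 and 11700.

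RPL5, RPS6, RPSA, RPS27A and RPL41 did not pass the adjusted threshold over 3 cell lines. RPL5 had a Log2 FC of -0.88 over 3 cell lines (adjusted p 0.128, limma) and in SUM149PT each siASAP1 library was below every siCtrl library, with 239, 482 and 240.5 normalized counts against 1068, 786 and 903. RPS6 had -0.47 (adjusted p 0.429), RPSA, also known as the laminin receptor, -0.26 (0.765), RPS27A 0.25 (0.803) and RPL41, which encodes a very short peptide, -0.71 (0.187). The probes with the highest mean normalized count, RPS27 (46019), RPS3 (42610) and RPL10 (39673), had Log2 FC of -0.69, -0.53 and -0.01 over 3 cell lines, and RPL10, a 60S protein near the P site, was at 113% of siCtrl in SUM149PT (Log2 FC 0.18).

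Paralogues are copies that can replace the common protein in some tissues. RPL3L, the muscle form of RPL3, had 8 reads in all and RPL10L, the testis form of RPL10, had 0. RPL39 had 14 reads in all and RPL39L 150. RPL26 and RPL26L1 had Log2 FC of -0.64 and -0.36 over 3 cell lines, and RPL7 and RPL7L1 of -0.62 and 0.24, where RPL7L1 in Hs578T was at 61.6, 68.5 and 61.1 against 159, 73.4 and 127, without overlap. RPS27 and its p53-regulated paralogue RPS27L had -0.69 and -0.68. RPL22L1 varied more than any other of the members past the minimum level except RPS15A and RPL32_5935, with a residual SD of 1.73 on the log2 scale: it had 84.4, 1118 and 33.6 normalized counts in SUM149PT siCtrl and 290, 24.5 and 20.1 in BT549 siASAP1.

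Where a gene had several probes, they did not always move alike. RPLP0_5959 was at 192, 1888 and 195 in SUM149PT siCtrl, high in the library that goes against its label, and its Log2 FC over 3 cell lines was -0.48 beside -0.84 for RPLP0_20556. RPL29_12206 and RPL29_5931 had -0.57 and 0.21, RPL32_27803 and RPL32_5935 had -0.23 and 0.01, RPS24_14333 and RPS24_5990 had -0.42 and -0.77, and RPL36A_5940 and RPL36A_27804 had -0.47 and -0.43; none of these passed an adjusted p of 0.05. For RPL27A and RPS20 the second probe was under the minimum level. RPL27A_25877 had -0.96 (adjusted p 0.0652, limma), with all 9 siASAP1 libraries below the siCtrl mean. RPL32_5935 was at 0, 57.4 and 1.60 in SUM149PT siCtrl and at 50.3, 0 and 17.1 in siASAP1, so its replicates differed more than its groups.

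Between the cell lines, compared in siCtrl, ribosomal protein probes were mostly higher in Hs578T and SUM149PT than in BT549. These contrasts share control libraries and are given side by side. Hs578T exceeded BT549 by a median Log2 FC of 0.85 (all probes -0.01), with 7 of 81 members higher and 0 lower at an adjusted p under 0.05 (7.58% and 6.28% of all probes; 0 lower at an unadjusted p under 0.05, beside 12.4%), and 74 were above 0 (beside 48.5%). SUM149PT exceeded BT549 by 0.51 (all probes -0.04), with 7 higher and 0 lower (9.4% and 8.8% of all probes; 1 lower at an unadjusted p under 0.05, beside 15.1%), and 55 were above 0 (beside 48.5%). Without SUM149PT siCtrl replicate 2 that median was 0.64, and it ran from 0.31 without BT549 siCtrl replicate 2 to 0.81 without BT549 siCtrl replicate 1. SUM149PT was below Hs578T by a median of -0.41 (all probes -0.00; -0.18 without Hs578T siCtrl replicate 2 and -0.25 without SUM149PT siCtrl replicate 2), with 1 higher and 4 lower (9.68% and 10.6%) and 57 below 0 (beside 50.1%). With scaling by library totals the medians of all probes became -0.21, -0.20 and 0.03 and those of the members 0.65, 0.35 and -0.37. The shares called higher against BT549 (8.64% in both contrasts) were near those of all probes, and the other shares called were below them. The counts moved with single libraries: Hs578T against BT549 gave 18 higher members without BT549 siCtrl replicate 1, 16 without SUM149PT siCtrl replicate 2, 4 without any 1 of Hs578T replicate 3 and SUM149PT replicates 1 and 3, and 1 without each other siCtrl library of BT549 or Hs578T. SUM149PT against BT549 gave 15 without BT549 siCtrl replicate 1, 20 without SUM149PT siCtrl replicate 2, 1 or 2 without each other library of BT549 or SUM149PT, and 5 to 9 without a library of Hs578T. For SUM149PT against Hs578T, the lower members numbered 6 to 8 without BT549 siCtrl replicate 1, SUM149PT siCtrl replicate 2 or Hs578T siCtrl replicate 3, and 1 or 2 without any other siCtrl library. Shares of all probes in these fits without a library are not given here.

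RPL29, a 60S protein on chromosome 3 (51993522 to 51995942, minus strand), had the largest Log2 FC among the members called. RPL29_12206 was at 67.4, 18.2 and 15.4 normalized counts in BT549 siCtrl, 2126, 3092 and 2821 in Hs578T and 2250, 1382 and 2574 in SUM149PT, and in the siASAP1 libraries BT549 was again lowest, with 29.3, 15.1 and 25.6 in BT549, 1493, 2437 and 1762 in Hs578T, and 570.2, 1802 and 1066 in SUM149PT. All BT549 libraries were far below all others. The Log2 FC was 6.57 ± 0.53 for Hs578T (adjusted p 4.1e-05, limma) and 6.17 ± 0.53 for SUM149PT (adjusted p 3.2e-05) against BT549. The second probe, RPL29_5931, did not show it: 111, 13.2 and 9.82 in BT549, 73.4, 117 and 8.87 in Hs578T and 5.72, 46.5 and 25.6 in SUM149PT siCtrl overlapped, with a Log2 FC of 0.78 for Hs578T (adjusted p 0.75).

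Other members differed less between the cell lines. RPL12 was at 22.5, 9.43 and 2.10 normalized counts in BT549 siCtrl and 80.2, 149 and 93.6 in Hs578T (Log2 FC 3.52, adjusted p 0.0377, limma). RPLP2 and RPL27A_25877 were higher in Hs578T than in BT549 by 1.84 and 1.83, and RPS6 and RPS26 were higher in SUM149PT than in BT549 by 2.13 and 1.55. RPS6 had 20719, 22655 and 17413 in SUM149PT siCtrl against 7356, 2599 and 5132 in BT549, with no overlap, and the difference was 2.04 without SUM149PT siCtrl replicate 2. Against Hs578T, SUM149PT was lower for RPS27L (-2.43), RPS20_27810 (-2.25), RPL37 (-1.99) and RPL30 (-1.55) and higher for RPL35 (1.17). RPS27L had 20.02, 36.4 and 14.4 in SUM149PT and 186, 219 and 45.3 in Hs578T, where replicate 3 was the lowest.

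**Figure D4:**
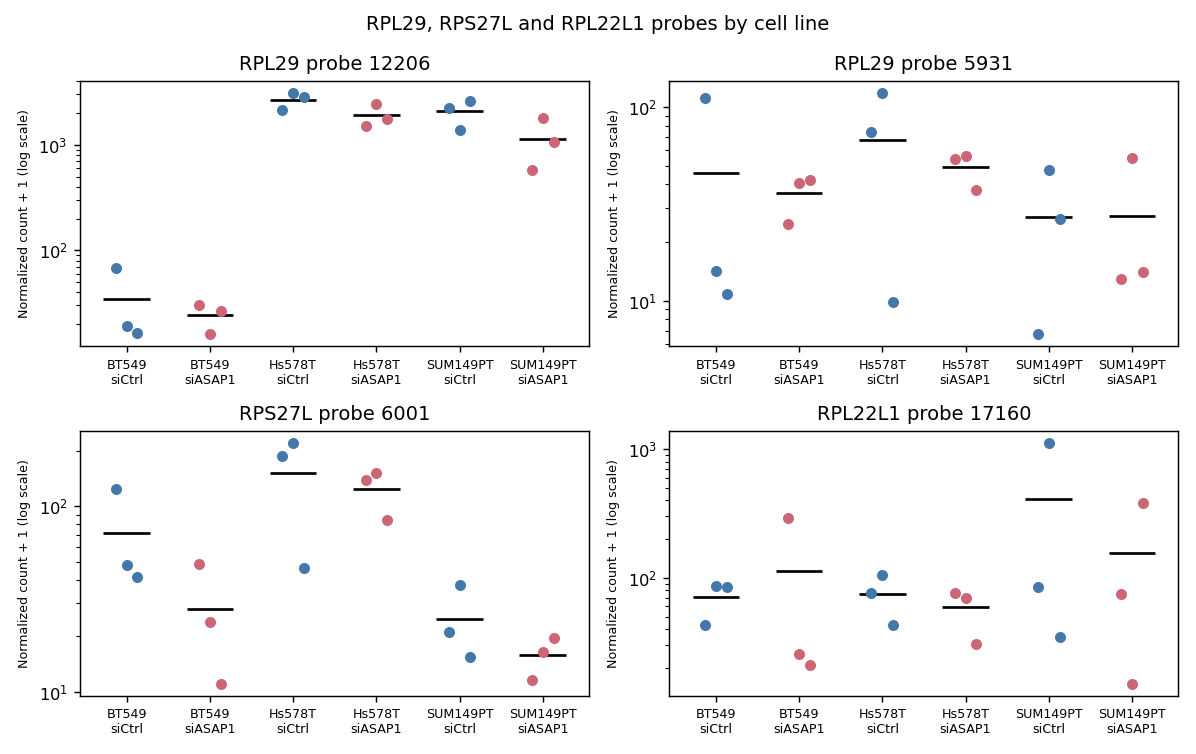
Normalized counts plus 1 (y axis, log scale) of both RPL29 probes, RPS27L and RPL22L1 in the libraries of each group; points are libraries (blue siCtrl, red siASAP1) and lines group means. RPL29_12206 stays under 70 in all 6 BT549 libraries and over 500 in the other 12, while RPL29_5931 overlaps between cell lines.

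The family also moved together between replicates of the same group. For each library, the deviation of every member from the mean of its group was taken on the log2 scale and the median over the 81 members was computed. It was highest in BT549 siCtrl replicate 1 (0.69, with 71 of 81 members above their group mean) and SUM149PT siASAP1 replicate 2 (0.65, 71 of 81), and lowest in SUM149PT siASAP1 replicate 1 (-0.55, 9 of 81), BT549 siCtrl replicate 2 (-0.37, 15 of 81) and Hs578T siCtrl replicate 3 (-0.32, 28 of 81). The SD of these medians over the 18 libraries was 0.40; the median over all probes is held near 0 by the scaling and gives no comparison. Scaling by library totals gave 0.37 and TMM scaling 0.41.

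Over the 18 libraries, the median correlation between the deviations of any 2 members was 0.39, beside 0.0015 for all probes, and 56 of 81 members had a correlation over 0.5 with the member median, against 13.6% of other probes. These points share library and depth within a group and are given as a description. RPL27A_25877 (0.95) and RPS18 (0.92) were among those that followed the median most closely. RPL32_5935 (-0.58), RPS23 (-0.50), RPL22L1 (-0.41) and RPS26 (-0.31) went the other way, so that 2 of the 4 members that fell over 3 cell lines did not follow the shift between replicates, while RPL10A (0.77) and RPL23A (0.54) did.

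Genes with long transcripts moved against this shift, and the shortest other genes moved with it by less. Members are short, with a median coding transcript of 683 bases beside 1851 for other genes (GENCODE release 29, the median over the coding transcripts of a gene). In BT549 siCtrl replicate 1, the other genes with the longest transcripts (the top 10%, 1010 probes) had a median deviation of -0.29 while the members had 0.69; in SUM149PT siASAP1 replicate 1 the values were 0.23 and -0.55, and in SUM149PT siASAP1 replicate 2 they were -0.17 and 0.65. The shortest 10% of other genes, with transcripts of at most 718 bases, had 0.14, -0.05 and 0.18 in these 3 libraries, much nearer 0 than the members. In Hs578T the longest genes stayed within 0.05 of 0. The probes most like the member median were AP2S1, S100A11, OBFC1, HIST1H2AL and PRDX2 (Pearson r 0.92 to 0.93 over 18 libraries), and those least like it were TANGO6, SPATA5, UBR2, PDE7A and FMNL2 (r -0.97 to -0.95). In the former, 4 with a known length had medians of 393 to 886 bases, and in the latter lengths ran from 2706 to 8137 bases.

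After siASAP1, the longest 10% of other genes had a median Log2 FC of 0.08 in BT549, 0.13 in Hs578T, 0.37 in SUM149PT and 0.17 over 3 cell lines, and the shortest 10% had -0.09, -0.05, -0.06 and -0.07, each nearer 0 than the member median of the same comparison. The part of transcript length in the lower ribosomal protein levels was not tested.

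**Figure D5:**
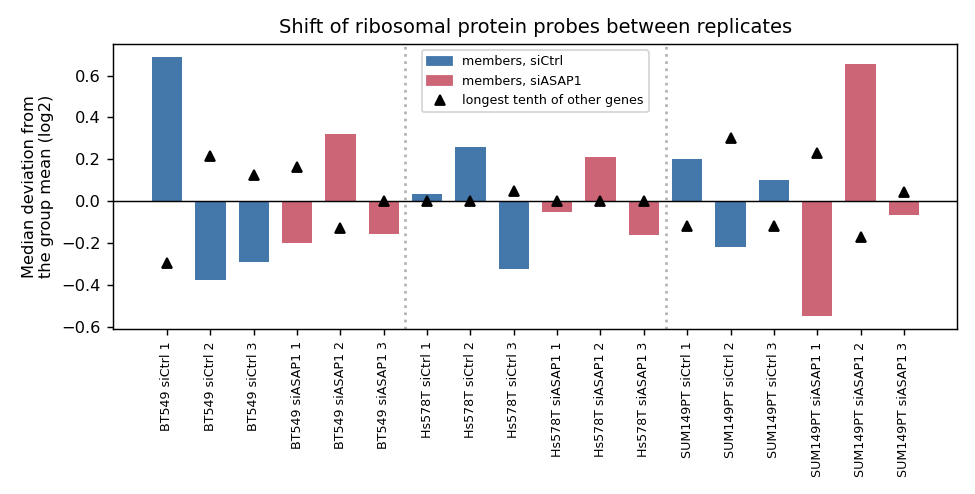
Median deviation of the 81 members from their group mean in each library (bars, log2; blue siCtrl, red siASAP1) with the median deviation of the longest 10% of other genes (triangles). BT549 siCtrl replicate 1 (0.69) and SUM149PT siASAP1 replicates 1 (-0.55) and 2 (0.65) stand out, with triangles on the opposite side of 0.

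Other genes of the ribosome and its control were listed by role. Over 3 cell lines, 48.3% of all probes were below 0. At an adjusted p under 0.05, 1.06% of all probes were called lower and 0.678% higher. Of the ribosomal proteins with other names, RACK1, a 40S scaffold protein, fell over 3 cell lines (Log2 FC -0.94, adjusted p 0.0232, limma), and FAU was under the minimum level. Of 11 other TOP mRNAs tested, 8 were below 0 with a median of -0.43, and 1 had an adjusted p under 0.05: PABPC1, the poly(A)-binding protein, at -0.65 (adjusted p 0.0359). EIF3H (-0.52), EEF1B2 (-0.47), HNRNPA1 (-0.43) and BTF3 (-0.72) had lower values with adjusted p of 0.141, 0.173, 0.19 and 0.16, whereas EEF1A1, an elongation factor, had 0.10. The 71 probes of mitochondrial ribosomal proteins, which serve a separate ribosome, had a median of -0.32. Of these, 53 were below 0 and 3 were called lower (beside 48.3% and 1.06% of all probes).

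Regulators of TOP mRNAs and S6 kinase differed in direction among themselves. Of 9 probes tested, 6 were above 0 with a median of 0.50 (48.3% of all probes were below 0). An adjusted p under 0.05 was reached by 0 of them. At an unadjusted p under 0.05, 2 were higher and 0 lower, beside 7.68% and 8.17% of all probes. TSC1 had a Log2 FC of 0.69 (adjusted p 0.187, limma), MTOR 0.50 (0.226) and LARP1 -0.51 (0.539). The 12 probes of RNA polymerase I and its factors had a median of -0.13 with 0 called. The 38 of ribosome assembly had a median of 0.00, with 19 below 0 and 1 called lower (beside 48.3% and 1.06% of all probes). MYC, which drives ribosome production, had 0.12. The p53 and ribosome stress list had a median of 0.27 over 3 cell lines, with 9 of 14 above 0 (48.3% of all probes were below 0). In SUM149PT its median was 1.01, with 12 of 13 above 0 (46.5% of all probes were below 0). There 0 had an adjusted p under 0.05 and 1 was higher at an unadjusted p under 0.05, beside 5.48% of all probes.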

How the data were processed

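Whole-transcriptome TempO-Seq of 18 libraries was analysed. The authors sequenced, assigned reads to probes, divided counts by DESeq2 size factors, added 1 and deposited log2 values. The submitters' processing notes name bcl2fastq, Bowtie and DESeq2; versions and the genome build are not given in the sources used here. Undoing the log2 and size factors gave whole reads for 100% of values (tolerance 0.01). Replicates were grouped by label, and no 2 were alike within sampling noise.

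The deposited log2 values were tested with limma 3.58.1 (lmFit, then eBayes with a trend) under R 4.3.3, with a minimum mean normalized count of 10 in the libraries of a fit and Benjamini-Hochberg adjustment over all probes tested. Log2 FC are on the log2(value + 1) scale and understate changes of low probes. All tests were run on simulated counts with known changes, drawn independently for each probe. Such counts hold no shift shared by a family within a library, so this check gives no error rate for the calls above. The rule for members uses symbols alone, but the family, the gene lists and the tests were proposed with earlier results of these data known. Named are members past the limits with the smallest p or largest change, paralogues, stalk proteins, members with several probes, and those with the highest or lowest level; RPL3 and the members of the correlation description were named after their values were seen. Annotation was GENCODE release 29. Figures used Python 3.11.15 and matplotlib 3.10.9. Some members and genes that this rule would name are not reported here.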

Additional observations from a re-analysis of the deposited data

How the results depend on the processing

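The direction of the member medians in each cell line, over 3 cell lines and between cell lines was kept under TMM scaling, scaling by library totals, no filter, a minimum of 50, a pseudocount of 0.1, summed probes, voom weights and a single fit over 18 libraries where run. Counts of calls moved more. In BT549, the 2 lower members became 1 under scaling by library totals, no filter, a minimum of 50, summed probes and voom weights, and no filter gave 1 higher member. In SUM149PT, the 23 lower members became 14 under scaling by library totals. Between cell lines, no filter gave 1 higher member for Hs578T against BT549, 3 for SUM149PT against BT549, and 0 higher and 0 lower for SUM149PT against Hs578T, and a pseudocount of 0.1 gave 4 higher for Hs578T against BT549 and 2 lower for SUM149PT against Hs578T. The cause of these moves was not tested.

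The labels do not say whether replicate numbers pair the samples. The correlation of deviations between same-numbered libraries ran from -0.65 to 0.35. It was below 0 for each number in SUM149PT, above 0 for each in Hs578T (0.10, 0.34 and 0.35) and mixed in BT549. With the number as a replicate block, the members lower over 3 cell lines went from 4 to 0 (adjusted p 0.058 for RPS26, 0.065 for RPL23A and RPL10A, 0.123 for RPS23), those lower in SUM149PT from 23 to 5, 1 member was higher in Hs578T, and 1 was lower in SUM149PT than in BT549; all probes called lower over 3 cell lines went from 111 to 20.

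Leaving out 1 library at a time gave these ranges. The shares of all probes in these fits are not given, so the counts show only how far the calls moved. In BT549 the median was -0.44 to 0.04, with 0 to 11 lower and 0 to 3 higher members. In Hs578T it was -0.45 to -0.11, with 0 to 3 and 0 to 1. In SUM149PT it was -1.33 to -0.60, with 8 to 33 and 0 to 1. Over 3 cell lines it was -0.59 to -0.40, with 4 to 7 lower. Hs578T against BT549 gave medians of 0.67 to 1.22, 1 to 18 higher and 0 to 2 lower members, SUM149PT against BT549 1 to 20 and 0 to 3, and SUM149PT against Hs578T 0 to 2 and 1 to 8. Probes with few reads, such as RPS26 with 14 to 243, are limited by depth.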

Other observations

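The 14 members with a mean normalized count of 10 to 100 had a median Log2 FC of -0.14 over 3 cell lines, beside 0.11 for other probes of that level, against -0.56 (25 members) between 100 and 1000 and -0.51 (42 members) over 1000, where other probes had 0.01 and -0.09. Mitochondrial ribosomal proteins were lower in SUM149PT after siASAP1, with a median of -0.65 and 60 of 71 below 0 (beside 46.5% of all probes). They had a median of 0.06 for Hs578T against BT549 in siCtrl, where the cytosolic members had 0.85.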
